A study of Bos taurus with 12 samples.

Results

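Small nuclear RNAs (snRNAs) were examined in bovine oocytes at metaphase of the second meiotic division (MII) and at the germinal vesicle (GV) stage. The members were all rows of the deposited expression table that the authors typed as snRNA and that had a value above 0 in at least 1 of 6 input libraries. This gave 328 rows of 16675, and each row is 1 annotated gene copy with an Ensembl identifier. By the gene name in the table, 236 copies were U6, 36 were U1, 26 were U2, 11 were U5 and 6 were U4. U12, U7 and RNU6ATAC had 1 copy each, and 10 copies carried no name. U7 is not part of the spliceosome, so the rows are called snRNAs here.

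An snRNA forms the core of a small nuclear ribonucleoprotein (snRNP), the particle that recognises introns and helps to cut them out of pre-mRNA. U1 pairs with the 5′ splice site and U2 with the branch point, while U4, U5 and U6 arrive together as the tri-snRNP, in which U6 is released from U4 to help form the catalytic centre. U12 and RNU6ATAC serve the minor spliceosome, which removes a small class of introns, and U7 takes part in trimming histone pre-mRNA. RNA polymerase II makes most snRNAs and RNA polymerase III makes U6 and RNU6ATAC. Mammalian genomes hold a few active snRNA genes, many of them in clusters, and many dispersed copies that include pseudogenes. A GV oocyte is arrested in prophase with an intact nucleus, and an MII oocyte has finished maturation, has no nuclear envelope and is largely silent in transcription.

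The study mapped N6-methyladenosine (m6A), a methyl mark on RNA, across in vitro cultured bovine oocytes at both stages. Each stage had 3 libraries immunoprecipitated with an antibody against m6A and 3 input libraries, 12 in all, with no treatment or genotype in the labels. FPKM values covered the 6 input libraries, and each stage had 1 list of m6A peaks. The labels do not say whether libraries of a stage came from separate pools of oocytes, so a p-value here reflects only library-to-library spread, part of which may be technical.

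The RNA was selected on oligo(dT) beads over 2 rounds of purification, and mature snRNAs lack a poly(A) tail. The levels below are therefore those of snRNA that stayed with the selected fraction, and how much was retained was not measured. Values are FPKM, in which fragments are scaled by gene length and library size, so each is relative to everything else in its library. In bulk oocytes, fewer cells of a type and less RNA per cell cannot be told apart. Copies of a family can be alike in sequence, so reads may fit several of them. Their sequences were not compared here, and the sources used here do not give how such reads were divided. Between 10 and 19 copies in each library had exactly the same value as another copy (within 1e-06 FPKM). A family's summed FPKM depends less on that division than the value of any single copy.

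The oocyte label was checked against marker genes. All 10 oocyte markers were present, with a summed level of 3888 to 4050 FPKM in MII libraries and 3453 to 3522 FPKM in GV libraries. Of 11 cumulus and granulosa markers, 8 had a row and 4 reached a mean of 1 FPKM, with a sum of 28.2 to 32.6 FPKM in MII and 56.6 to 59.5 FPKM in GV, mostly from HAS2 and PTGS2. INHA and FSHR were listed at 0 in all MII libraries but averaged only 0.471 and 0.0736 FPKM in GV. PTX3 was listed at 0 in all GV libraries and averaged 0.255 FPKM in MII. CYP19A1 averaged 0.496 FPKM in MII and 0.122 FPKM in GV, and CD44 averaged 1.80 and 1.51 FPKM. VIM averaged 0.429 FPKM in MII and 6.31 FPKM in GV. Of 6 blood and immune markers, 3 had a row, summing to 8.29 to 11.1 FPKM in MII and 4.80 to 5.83 FPKM in GV. The part of these other cells in the snRNA values was not tested. An estimate from the spacing of low values of short RNAs put 1 FPKM at a mean coverage of 2.88 to 4.61 reads in MII libraries and 3.53 to 3.56 reads in GV libraries. Only 44.5% to 50.6% of those values lay on whole steps (within 0.05 of a step), so the depth is not firmly known.

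The summed level of all snRNA copies was lower in MII oocytes. It was 2409, 2203 and 2595 FPKM in MII libraries 1, 2 and 3, against 3431, 3627 and 3531 FPKM in GV libraries 1, 2 and 3. The means were 2402 ± 196 FPKM in MII and 3529 ± 98.3 FPKM in GV (SD, n = 3 each). The highest MII library stayed below the lowest GV library. The snRNAs made up 0.382% to 0.436% of the table's summed FPKM in MII and 0.619% to 0.658% in GV. More copies were listed at 0 in MII libraries, 93 to 99 of 328, than in GV libraries, where 66 to 68 were. Of the 49 copies at 0 throughout MII, 45 had a mean under 1 FPKM, as did 29 of the 31 at 0 throughout GV. The share of zeros over all genes was not taken, so these counts are not read as particular to snRNAs.

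The families did not share a single pattern. U1, the family with the highest sum, had 1528, 1396 and 1621 FPKM in MII, against 2347, 2487 and 2399 FPKM in GV, a difference of -0.67 on the log2 scale. U6 had 513, 454 and 552 FPKM in MII, against 693, 750 and 748 FPKM in GV, a difference of -0.53. In both families the stages did not overlap, with every MII library below every GV library. U5, the snRNA that aligns the exons, had 79.5, 71.6 and 94.6 FPKM in MII, against 95.5, 100.7 and 109.9 FPKM in GV, a difference of -0.32 with no overlap but a gap of under 1 FPKM. U2 went the other way, with 228, 230 and 272 FPKM in MII, against 219, 218 and 209 FPKM in GV, a difference of 0.17 without overlap. U4, which holds U6 inactive until the spliceosome is activated, was low at both stages and overlapped, with 9.51, 7.32 and 7.35 FPKM in MII, against 15.7, 6.57 and 10.4 FPKM in GV.

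**Figure D1:**
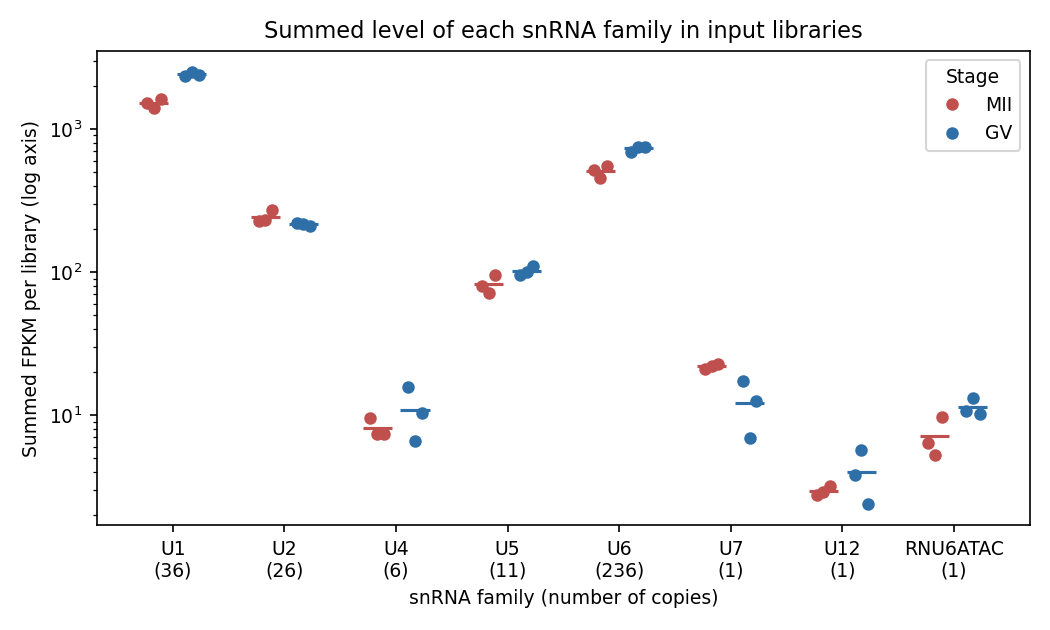
Summed FPKM of each snRNA family (log axis) in each MII input library (red) and GV input library (blue), with short lines at the mean of 3 libraries and the number of copies in brackets. U1 and U6 sums are lower in all MII libraries, the U2 sum is slightly higher in all of them, and the stages overlap for U4 and U12.

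Because the families moved unequally, the makeup of the snRNA pool differed. U1 was 63.1% ± 0.54 of the summed snRNA level in MII and 68.3% ± 0.32 in GV (SD, n = 3 each). U2 was 10.1% ± 0.57 in MII and 6.10% ± 0.25 in GV. The ratio of U1 to U2, which does not depend on the scaling of a library, was 6.71, 6.08 and 5.96 in MII libraries 1, 2 and 3, against 10.7, 11.4 and 11.5 in GV libraries 1, 2 and 3. All MII ratios lay below all GV ratios. The U6 share was similar at the 2 stages, 21.1% ± 0.39 in MII and 20.7% ± 0.50 in GV. No p-value is given for these sums and shares, because the members were chosen with results known.

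Single copies were tested with limma on log2(FPKM + 1) across the whole table, keeping genes whose 6 input libraries averaged 1 FPKM or more. Of the 328 copies, 169 passed this filter and 159 did not. Of those tested, 72 were lower and 10 were higher in MII at an adjusted p under 0.05, and 87 were not called. That is 42.6% lower and 5.92% higher, against a background over all 11739 tested genes of 28.8% lower and 32% higher (60.8% called in either direction). The median log2 change was -0.46 over the tested copies and 0.01 over all tested genes. Without the copies listed at 0 throughout a stage, which are 6 of those tested, 69 of 163 were lower, 9 were higher and the median was -0.45. In 78 tested copies all MII libraries lay below all GV libraries, and in 9 all lay above, against backgrounds of 32.3% and 34.9% of genes. Changes on this scale understate those of copies with low values.

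The calls did not come from a single range of expression. Copies with a mean of 1 to 2 FPKM had 18 lower and 2 higher of 60, and those of 2 to 5 FPKM had 27 lower and 1 higher of 58. At 1 to 2 FPKM the share lower was near the background of 28.8% over all tested genes. Copies of 5 to 20 FPKM had 9 lower and 1 higher of 21, and those above 20 FPKM had 18 lower and 6 higher of 30. The copies nearest the filter were U6 ENSBTAG00000053805 just outside it, with a mean of 0.974 FPKM, and U6 ENSBTAG00000052732 just inside it, with a mean of 1.01 FPKM. The rule for members itself let in copies with hardly any signal, the lowest being an unnamed copy, ENSBTAG00000047738, with 0.0391 FPKM in GV library 3 and 0 elsewhere.

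**Figure D2:**
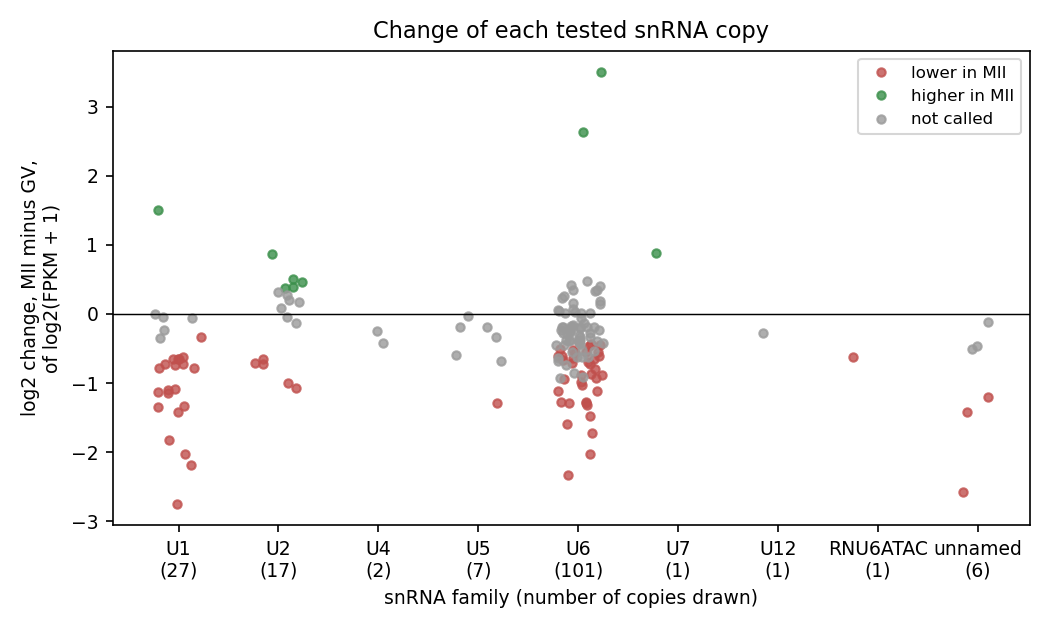
Change of each tested snRNA copy (points) by family, as MII minus GV on log2(FPKM + 1), with copies lower in MII in red, higher in green and not called in grey. The 6 copies listed at 0 throughout a stage are left out; U1 copies lie mostly below 0, U2 copies on both sides, and the 2 highest U6 points are ENSBTAG00000050029 and ENSBTAG00000043320.

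Most tested U1 copies were lower in MII. Of 28 tested, 21 were lower, 2 were higher and 5 were not called, with a median of -0.74. Of the 20 snRNA copies with the highest mean, 16 were U1 and 4 were U6. The 10 highest U1 copies held 80.8% of the U1 sum in MII and 79.3% in GV. Of the 16 U1 copies at or above 20 FPKM, 14 were lower, and leaving out the 10 highest copies kept 13 lower of 18 tested.

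The highest of all snRNA copies was among the 5 tested U1 copies that were not called. U1 copy ENSBTAG00000053301 (chromosome 3, 21332180 to 21332343, plus strand, 164 bp) had 304, 238 and 246 FPKM in MII, against 267, 268 and 274 FPKM in GV. The MII values lay on both sides of the GV values, and the change of -0.05 (SE 0.09) was not called by limma (adjusted p = 0.66). Its neighbours within the same cluster of 3 copies were lower. ENSBTAG00000050444 had 139, 114 and 154 FPKM in MII, against 211, 224 and 235 FPKM in GV, a change of -0.73. ENSBTAG00000048757 had 124, 105 and 143 FPKM in MII, against 219, 205 and 212 FPKM in GV, a change of -0.78. In both neighbours every MII library lay below every GV library. The share of the U1 sum held by the highest copy was 17.4% in MII and 11.2% in GV.

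Other U1 copies fell by more. ENSBTAG00000050225 (chromosome 10, 39332898 to 39333061, plus strand) lies alone, outside any other gene of the table. It had 98.9, 91.0 and 121.4 FPKM in MII, against 267, 248 and 276 FPKM in GV, without overlap. Its change was -1.35 (SE 0.10), called by limma at an adjusted p of 3.24e-05. Smaller U1 copies reached changes of -2.75 (ENSBTAG00000029640), -2.19 (ENSBTAG00000045379, inside RNF138), -2.02 (ENSBTAG00000029683) and -1.83 (ENSBTAG00000034948). These 4 had means of 0.433 to 0.924 FPKM in MII and 5.44 to 9.81 FPKM in GV. They were near the floor at MII and passed the filter only through their GV values.

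A second U1 cluster of 5 copies lies on chromosome 19 within 26.8 kb (9625022 to 9651866), all inside TEX14 on its strand. TEX14 encodes a protein of intercellular bridges between germ cells. ENSBTAG00000051285 had 90.8, 83.4 and 89.1 FPKM in MII, against 153, 148 and 141 FPKM in GV, a change of -0.74 (adjusted p = 2.07e-05, limma). ENSBTAG00000051291 and ENSBTAG00000049501 were lower by similar amounts, with changes of -0.73 and -0.66. The stages were apart in all 3. The highest copy of the cluster, ENSBTAG00000052158, had 174, 202 and 219 FPKM in MII, against 163, 319 and 242 FPKM in GV, and was not called (adjusted p = 0.38, limma). The GV values of that copy spanned all of its MII values. The fifth copy was nearly silent, at 0.170 FPKM in MII library 2 and 0 elsewhere. TEX14 itself averaged 4.76 FPKM in MII and 8.04 FPKM in GV, a change of -0.66 (adjusted p = 0.0038, limma), and its part in the copies' values was not tested.

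The third U1 cluster held calls in both directions. Its 5 copies lie on chromosome 21 within 32.8 kb (44955172 to 44987947), and 3 were lower and 2 were higher in MII. ENSBTAG00000049660 had 68.1, 69.9 and 87.5 FPKM in MII, against 170, 176 and 149 FPKM in GV, a change of -1.13. ENSBTAG00000051054 and ENSBTAG00000055182 had changes of -0.65 each. The copies that went up were the lowest of the cluster and differ from the usual U1 length of 164 bp. ENSBTAG00000028419 (159 bp) had 3.16, 3.70 and 4.42 FPKM in MII and was listed at 0 in all GV libraries. ENSBTAG00000037013 (165 bp) had 2.64, 3.06 and 2.63 FPKM in MII, against 0.536, 0 and 0.537 FPKM in GV, a change of 1.5. Neither overlapped between stages, and both were low beside the copies that fell. Both passed the filter of 1 FPKM only through their MII values, so their calls are given as description and without a p-value. The whole cluster summed to 194 ± 13.2 FPKM in MII and 342 ± 15.0 FPKM in GV (SD, n = 3 each).

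**Figure D3:**
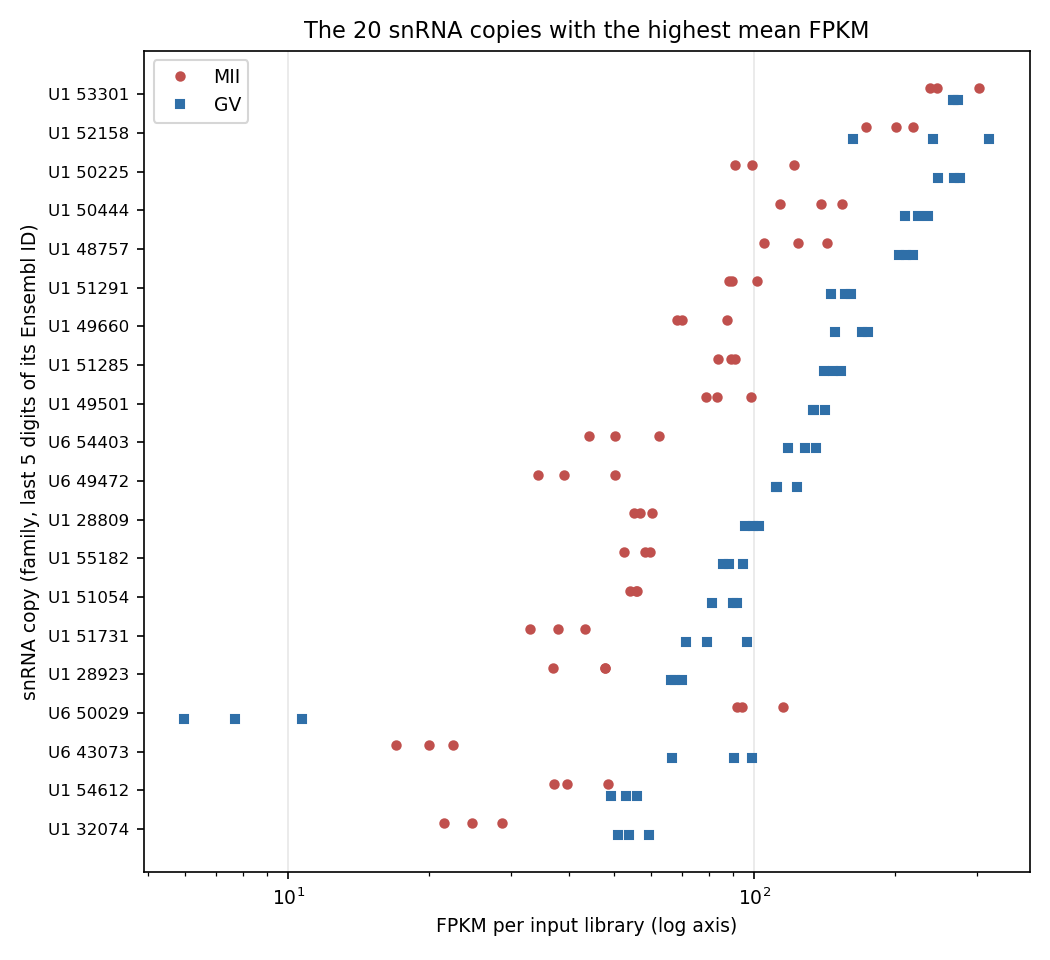
FPKM (log axis) of the 20 snRNA copies with the highest mean, in each MII input library (red circles, upper row of each copy) and GV input library (blue squares, lower row). MII points lie left of GV points for 17 copies, overlap them for U1 ENSBTAG00000053301 and ENSBTAG00000052158, and lie right of them for U6 ENSBTAG00000050029.

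U2 had 5 copies lower and 5 higher of 17 tested, with a median of 0.17. Most of its level came from 1 cluster of 14 copies on chromosome 19 (43210557 to 43334403, 123.8 kb), whose sum was 225 ± 25.3 FPKM in MII and 197 ± 5.23 FPKM in GV (SD, n = 3 each). The copies called higher there were the most expressed ones on the plus strand. ENSBTAG00000052292 had 43.0, 39.7 and 47.5 FPKM in MII, against 37.5, 30.8 and 31.2 FPKM in GV, a change of 0.38 (SE 0.09, adjusted p = 0.0095, limma). ENSBTAG00000050956 had 25.2, 27.4 and 32.0 FPKM in MII, against 21.4, 17.6 and 19.5 FPKM in GV, a change of 0.51. ENSBTAG00000051505 and ENSBTAG00000051514 had changes of 0.46 and 0.39. In all 4 the MII libraries lay above the GV libraries, by a small margin.

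Other copies of the U2 cluster were lower or not called, with 3 lower and 6 not called of 13 tested. ENSBTAG00000052024, ENSBTAG00000051825 and ENSBTAG00000053925 had changes of 0.32, 0.27 and 0.20 and were not called. ENSBTAG00000050245, on the minus strand and inside the protein-coding gene ENSBTAG00000049347, had 9.85, 11.6 and 14.3 FPKM in MII, against 28.4, 26.9 and 19.5 FPKM in GV, a change of -1.0 (adjusted p = 0.0015, limma). ENSBTAG00000050664 had 26.1, 16.9 and 32.7 FPKM in MII, against 20.7, 29.1 and 31.5 FPKM in GV, and its stages overlapped. Of the tested U2 copies, 10 lie on the plus strand, with 3 lower and 5 higher, and 7 on the minus strand, with 2 lower and the others not called. The difference between strands was not tested. Outside the cluster, ENSBTAG00000043747 on chromosome 7 fell to 1.46, 1.22 and 0.972 FPKM in MII, against 2.91, 3.90 and 4.18 FPKM in GV, a change of -1.07 (adjusted p = 0.00080, limma).

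U6 has by far the most copies, and most were hardly detected. Of 236 copies, 130 had a mean under 1 FPKM, and of 106 tested 41 were lower and 2 were higher, with a median of -0.45. The 5 highest copies carried 55.0% of the U6 sum in MII and 47.3% in GV. The most frequent length, 107 bp, was shared by 184 copies. Of these, 95 were tested, and 38 were lower and 0 were higher in limma (0 higher at an unadjusted p under 0.05). The 52 copies of other lengths had 3 lower and 2 higher of 11 tested.

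The 3 most abundant U6 copies inside other genes were lower in MII. ENSBTAG00000054403, inside CCSER2 on its strand, had 50.2, 44.2 and 62.3 FPKM in MII, against 128, 136 and 118 FPKM in GV, a change of -1.28 (adjusted p = 7.84e-05, limma). CCSER2 averaged 15.2 FPKM in MII and 23.3 FPKM in GV, with a change of -0.58. ENSBTAG00000049472, inside KSR2 on its strand, had 39.0, 34.3 and 50.1 FPKM in MII, against 111, 124 and 112 FPKM in GV, a change of -1.48. In both copies the MII values lay well below the GV values, while KSR2 itself averaged 0.438 FPKM in MII and 0.0473 FPKM in GV. ENSBTAG00000043073, inside TMCC1 on the other strand, had 20, 17.1 and 22.6 FPKM in MII, against 66.5, 90.2 and 98.7 FPKM in GV, a change of -2.03 (SE 0.15).

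Several U6 copies were listed at 0 in all MII libraries. ENSBTAG00000052534 on chromosome 15 was at 0 in MII, against 9.82, 7.08 and 6.33 FPKM in GV. ENSBTAG00000052182 on chromosome 20 was at 0 in MII, against 5.61, 5.67 and 8.44 FPKM in GV. Both were called lower, but they passed the filter of 1 FPKM only through their GV values, so no p-value is given. No fold is given against a stage listed at 0. ENSBTAG00000052440 on chromosome 5 had 3.12, 1.30 and 0.957 FPKM in MII, against 11.6, 12.3 and 12.9 FPKM in GV, a change of -2.33. In all, 49 snRNA copies were listed at 0 throughout MII and 31 throughout GV, and 4 and 1 of these were tested and called.

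In contrast, 2 U6 copies were far higher in MII than in GV. ENSBTAG00000050029 (chromosome 24, 45911775 to 45911878, plus strand, 104 bp) had 115.3, 93.9 and 91.9 FPKM in MII, against 5.99, 7.68 and 10.7 FPKM in GV. Its change was 3.50 (SE 0.18, adjusted p = 6.93e-06, limma), the largest rise among the tested copies with signal at both stages. It lies 749 bp from the nearest protein-coding gene, C24H18orf25, on the same strand, whose change was 0.38 (adjusted p = 0.00052, limma). ENSBTAG00000043320 (chromosome X, 30108528 to 30108635, plus strand, 108 bp) had 74.1, 60.5 and 58.6 FPKM in MII, against 10.5, 6.27 and 12.9 FPKM in GV, a change of 2.63 (SE 0.22, adjusted p = 5.32e-05, limma). For both copies the lowest MII library was several times the highest GV library. Neither has the usual U6 length, and neither lies inside another gene of the table. These traits were not particular to them. U6 copy ENSBTAG00000042184 (chromosome 15, plus strand, 104 bp) also lies in no other gene but was lower. It had 11.6, 16.1 and 16.6 FPKM in MII, against 33.1, 42.7 and 36.3 FPKM in GV, a change of -1.29.

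The 2 U6 copies called higher shaped the summed U6 level. Together they held 189, 154 and 150 FPKM in MII, against 16.5, 14.0 and 23.6 FPKM in GV. The remaining 234 copies had 324, 300 and 401 FPKM in MII, against 676, 736 and 725 FPKM in GV, which is a difference of -1.06 in place of -0.53. Leaving the pair out was chosen after the data had been seen. The 184 copies of usual length gave 291, 258 and 356 FPKM in MII, against 611, 662 and 662 FPKM in GV.

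**Figure D4:**
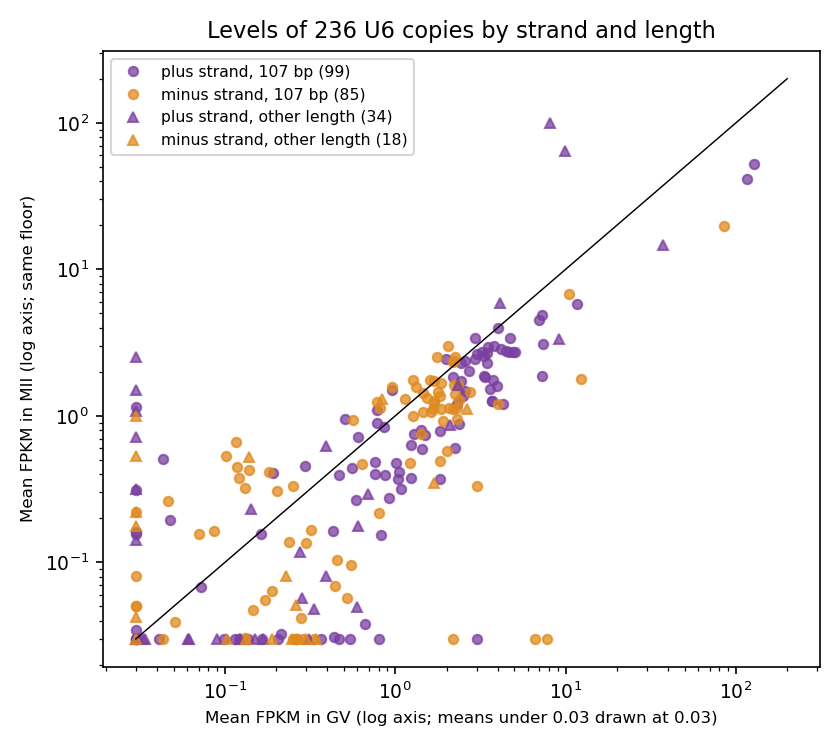
Mean FPKM of each U6 copy in MII (vertical) against GV (horizontal), both on log axes with means under 0.03 drawn at 0.03; colour gives the strand, shape the length, and the line marks equal levels. Most copies above 1 FPKM lie below the line, and the 2 triangles far above it are ENSBTAG00000050029 and ENSBTAG00000043320.

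On the plus strand 43 of 133 U6 copies had a mean of at least 2 FPKM, against 12 of 103 on the minus strand. Among copies of usual length, 26 of 50 tested on the plus strand were lower, and 12 of 45 tested on the other strand were. No test was made of this split.

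Over all families, 57 copies lie inside another gene on its strand, 66 on the opposite strand of a gene and 205 in no other gene of the table. Of the tested copies, 12 of 25, 17 of 37 and 43 of 107 were lower in these classes. All 10 copies called higher belong to the last class. Of the 25 tested copies inside a gene on its strand, 18 had a host gene that was also tested, and 13 of these changed in the same direction as the host. Of all 169 tested snRNA copies, 134 had a change below 0, and a link between copy and host was not tested. Over all 25, hosts below the filter included, the copy had a higher FPKM than its host in 15 in MII and in 16 in GV. Without the copies inside genes on their strand, the U6 difference was -0.24 and the U1 difference was -0.71. The 148 U6 copies in no other gene summed to 316, 275 and 304 FPKM in MII, against 251, 255 and 273 FPKM in GV. Every MII library of that class lay above every GV library, and the class holds the 2 U6 copies called higher. On the strand of a gene, U6 copies summed to means of 121 FPKM in MII and 276 FPKM in GV. On the opposite strand these means were 86.6 and 195 FPKM. Whether reads of a host transcript entered the copies' values was not tested.

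U5 copies changed less. Of 7 tested, 1 was lower and 0 were higher in limma (0 higher at an unadjusted p under 0.05), with 7 of 7 changes below 0 and a median of -0.33. The 2 highest copies were ENSBTAG00000042956 on chromosome 3, with 22.7, 23.3 and 23.9 FPKM in MII, against 24.6, 31.0 and 25.3 FPKM in GV, and ENSBTAG00000049706 on chromosome 10, with 22.5, 22.0 and 27.4 FPKM in MII, against 25.6, 22.4 and 24.9 FPKM in GV. Neither was called, and the second overlapped between stages. The called copy was ENSBTAG00000052387, with 1.07, 0.333 and 0.542 FPKM in MII, against 3.39, 3.02 and 2.47 FPKM in GV, a change of -1.28. That copy passed the filter only through its GV values. Both tested U4 copies, ENSBTAG00000054016 and ENSBTAG00000050288, overlapped between stages and were not called.

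The minor spliceosome and U7 had single copies. RNU6ATAC, the counterpart of U6 in the minor spliceosome, had 6.37, 5.30 and 9.73 FPKM in MII, against 10.7, 13.1 and 10.1 FPKM in GV, a change of -0.63 (adjusted p = 0.026, limma). The stages did not overlap, but by less than 1 FPKM. That call was lost without GV library 1 or 2 or MII library 1 or 2, with adjusted p of 0.052, 0.083, 0.085 and 0.080. U12, which recognises the branch point of minor introns, had 2.77, 2.88 and 3.19 FPKM in MII, against 3.83, 5.70 and 2.40 FPKM in GV, and was not called (adjusted p = 0.32, limma). U7 had 20.9, 21.9 and 22.9 FPKM in MII, against 17.3, 6.90 and 12.5 FPKM in GV, a change of 0.88 (adjusted p = 0.022, limma). All MII values of U7 lay above the GV values, and its call was lost without any of the MII libraries (adjusted p = 0.059 to 0.066).

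Of the 10 unnamed copies 6 were tested, and 3 were lower. ENSBTAG00000050588 on chromosome 13 (86 bp) had 0, 0.786 and 0 FPKM in MII, against 6.31, 7.79 and 4.92 FPKM in GV, a change of -2.58. This copy passed the filter of 1 FPKM only through its GV values, so no p-value is given. ENSBTAG00000042489 and ENSBTAG00000048356, both 126 bp, shared their value in MII library 1 (0.485 FPKM) and in GV library 1 (3.50 FPKM). They cannot be taken as separate measurements.

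m6A peaks on snRNAs were few. The MII list held 22298 peaks, of which 9 were assigned by the authors to an snRNA, and the GV list held 14222 peaks, of which 4 were. By identifier, 9 of the 328 members had a peak in MII and 3 in GV, and at an authors' adjusted p under 0.05 these were 5 in MII and 0 in GV. The background was 57.5% of all genes of the table in MII and 40.1% in GV. For 607 snoRNA, scaRNA, miRNA and misc_RNA genes it was 0.824% and 0.494%. Counting any overlap of 1 bp on the same strand, 26 members lay under a peak in MII and 10 in GV, and 21 and 7 of them under a peak with an authors' adjusted p under 0.05. For 15 of the members in MII and 5 in GV, every such peak was longer than 300 bp and spanned a stretch of a gene around the copy. Peaks of at most 300 bp covered 11 members in MII and 5 in GV, 14 members in all, but only 6 in MII and 2 in GV had a short peak with an authors' adjusted p under 0.05. Each stage has 1 list with no replicates, so the difference in number was not tested. METTL16 is known to methylate U6 in human cells, and the caps of snRNAs can carry a related mark that m6A antibodies also bind.

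The short peaks fell on U1, U2, U4, U5 and U6 copies. In MII they covered 5 U1 copies, 3 U2 copies, 2 U4 copies and 1 U6 copy, with log2 enrichments of 1.16 to 3.26, where the median of the whole MII list was 1.67. In GV they covered 2 U1 copies and 1 copy each of U2, U4 and U5, with enrichments of 1.32 to 2.94, where the median of the GV list was 2.62. The enrichments are the authors' own values for each peak. The U6 copy was ENSBTAG00000043073, whose MII peak matched its full 107 bp with an enrichment of 3.09 and an authors' adjusted p of 0.0011. U1 copy ENSBTAG00000049660 had an MII peak over its full length with an enrichment of 1.84 and an authors' adjusted p of 1.58e-15. Both copies had lower input levels in MII than in GV. Other short peaks missed 0.05. In MII the authors' adjusted p was 0.17 for U1 copy ENSBTAG00000050225, 0.059 for U1 copy ENSBTAG00000051054, and 0.058 and 0.093 for U2 copies ENSBTAG00000050664 and ENSBTAG00000050245. In GV it was 0.074 for U1 copy ENSBTAG00000052379 and 0.14 for U5 copy ENSBTAG00000042506.

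Only 2 members had a short peak in both lists. U4 copy ENSBTAG00000054016 had enrichments of 1.26 in MII and 1.32 in GV, with authors' adjusted p of 0.076 and 0.054. U2 copy ENSBTAG00000036659 lies in WDR74, a gene of ribosome assembly, and the authors assigned its peaks to the 5′ UTR of that gene. Its enrichments were 2.89 and 1.74 in MII, for 2 overlapping peaks, and 2.54 in GV. Its input level was 2.59, 17.7 and 5.66 FPKM in MII, against 6.77, 5.13 and 6.96 FPKM in GV, with MII library 2 far above the rest. Whether the peak belongs to U2 or to WDR74 was not tested.

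Among the 8682 peaks of the authors' deposited table of differential peaks, 6 overlapped a member and none was assigned to one. A single short peak was among them. It covered U1 copy ENSBTAG00000052158 inside TEX14 (chromosome 19, 9650526 to 9650689) and had a log2 change of -2.90, MII over GV, and an adjusted p of 2.51e-13 in the authors' deposited table. The same interval was a peak in the GV list, with an enrichment of 1.73, and no MII peak overlapped that copy.

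Genes for snRNP proteins and for the making of snRNAs were read from the same limma fit. Of 114 listed genes, 109 were tested, and 46 were higher and 32 were lower in MII, with a median change of 0.10. The background was 32% of genes higher and 28.8% lower.

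Proteins of the mature particles had more calls of higher than of lower level in each of 4 lists. The U4/U6 and tri-snRNP list had 7 higher and 1 lower of 8. PPIH, a prolyl isomerase of the U4/U6 particle, averaged 59.6 ± 6.44 FPKM in MII and 25.0 ± 2.56 FPKM in GV (SD, n = 3 each), a change of 1.22. SNU13, which binds the U4 stem, and PRPF31 had changes of 0.85 and 0.80, and PRPF3 was lower, at -0.34. U1 proteins had 2 of 3 higher and the other not called, with SNRPC at 294 ± 8.62 FPKM in MII and 204 ± 7.74 FPKM in GV, a change of 0.52. The U2 list had 6 higher and 2 lower of 12, and the core branch-point factor SF3B1 was at 25.1 ± 2.78 FPKM in MII and 50.3 ± 1.09 FPKM in GV, a change of -0.98. U5 proteins had 3 higher and 2 lower of 8.

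The rings that clamp snRNAs were mixed. Sm proteins, which encircle the snRNAs made by RNA polymerase II, had 4 higher and 2 lower of 8. SNRPD2 averaged 50.6 ± 0.49 FPKM in MII and 23.7 ± 0.40 FPKM in GV, a change of 1.06, and SNRPE averaged 50.6 ± 1.84 FPKM in MII and 76.6 ± 4.09 FPKM in GV, a change of -0.59. The LSM list, which includes the ring that binds the end of U6, had 5 higher and 1 lower of 10. LSM2 had a change of 1.07 and LSM3 a change of 0.68. LSM5 had 11, 11.4 and 11.4 FPKM in MII and was listed at 0 in all GV libraries, so no fold is given. The lower LSM gene was LSM11, part of the U7 particle, at -0.22. Minor spliceosome proteins had 4 higher and 2 lower of 7, with SNRNP35 at 1.16 and ZCRB1 at -0.97.

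Genes for the making and export of snRNAs were called in both directions. Integrator, the complex that cuts the ends of snRNAs made by RNA polymerase II, had 1 higher and 7 lower of 14. INTS6 averaged 26.1 ± 1.09 FPKM in MII and 44.5 ± 2.91 FPKM in GV, a change of -0.75, and INTS9 had a change of -0.56. INTS11, the cutting subunit, was the only one higher, at 4.66 ± 0.97 FPKM in MII and 1.89 ± 0.24 FPKM in GV, a change of 0.96. Transcription factors of snRNA genes had 5 higher and 6 lower of 12, with ICE2 at -0.86 and SNAPC2 at 0.87. The cap, export and import list had 3 higher and 4 lower of 7, among them PHAX, the snRNA export adaptor, at 38.1 ± 1.27 FPKM in MII and 64.2 ± 2.18 FPKM in GV, a change of -0.74. Its export receptor XPO1 had a change of -0.65. The SMN assembly list, for loading Sm rings, had 4 higher and 3 lower of 11, with STRAP at -1.42 and GEMIN8 at 0.88.

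Genes that finish or modify U6 and other snRNAs had 2 higher and 2 lower of 9. USB1, the nuclease that trims the U6 end, averaged 33.3 ± 4.82 FPKM in MII and 56.5 ± 4.73 FPKM in GV, a change of -0.75 (adjusted p = 0.00067, limma). SSB, the La protein that binds new transcripts of RNA polymerase III, had a change of -0.35. MEPCE, which caps 7SK and is found with U6, averaged 59.6 ± 4.16 FPKM in MII and 33.7 ± 1.56 FPKM in GV, a change of 0.80, and TOE1, a deadenylase that trims snRNA tails, had a change of 0.63. METTL16 averaged 17.6 ± 1.42 FPKM in MII and 19.4 ± 0.62 FPKM in GV and was not called (adjusted p = 0.15, limma).

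**Figure D5:**
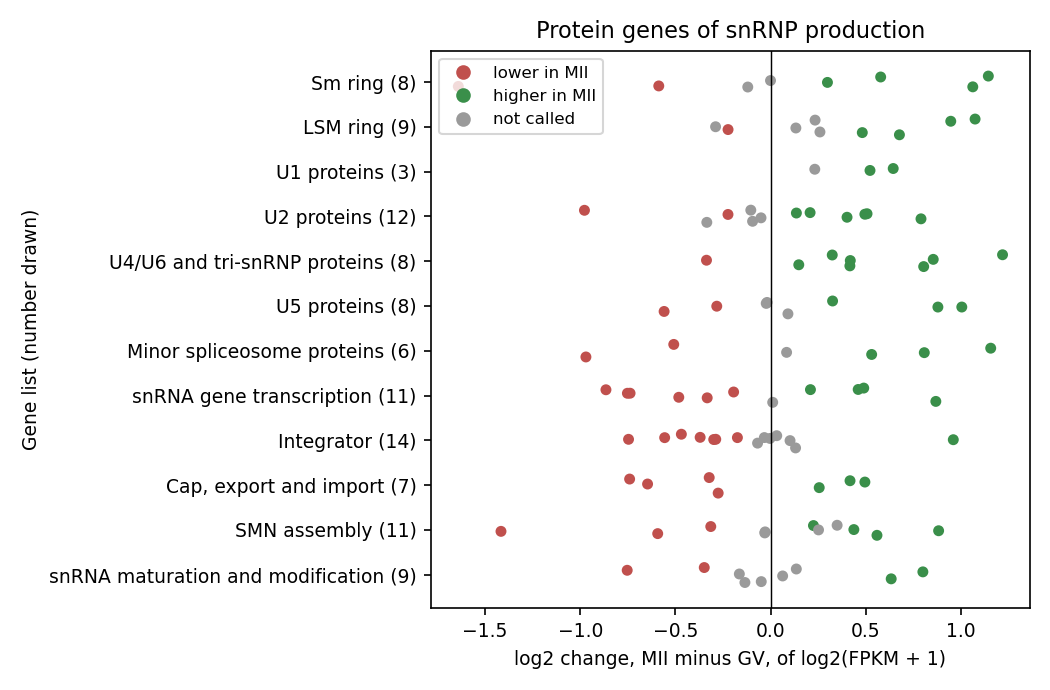
Change of each tested protein gene (points) by list, as MII minus GV on log2(FPKM + 1), with genes lower in MII in red, higher in green and not called in grey; genes listed at 0 throughout a stage are left out. The U4/U6 and tri-snRNP genes lie mostly right of 0, and 10 of 14 Integrator genes left of 0, with INTS11 at 0.96 the only one of them called higher.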

How the data were processed

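Input libraries were grouped by the stage in the labels' titles. FPKM per gene were used as the authors deposited them, together with their RNA types and gene names. Log2 enrichments of m6A peaks and log2 changes of differential peaks are the deposited values, per the file headers. P-values of peaks and their adjusted values are likewise those of the authors. The submitters' processing notes list HISAT2 2.0.4 and StringTie 2.1.2 without a role, beside fastp 0.19.4, HOMER 4.10 and edgeR 4.1. The sources used here do not give the genome build, annotation release, peak caller or treatment of reads with several matches. Coordinates are those of the files and count from 1. Per the labels' protocols, libraries kept the strand.

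The members, gene lists and tests were chosen with earlier results of these data known. All genes averaging 1 FPKM or more were fitted with limma 3.58.1 in R 4.3.3 (eBayes with trend, 2-sided) on log2(FPKM + 1). P-values were adjusted by Benjamini-Hochberg over 11739 genes, with a threshold of 0.05. The script was tested on simulated data. Copies with values given are, by rule, the 20 highest, the highest of each family, called copies and copies with a peak, of which the text gives a part. Clusters are at least 3 copies of a family with gaps of at most 100 kb. FPKM are not counts, so no count test was run. No sequences were used here.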

Additional observations from a re-analysis of the deposited data

How the results depend on the processing

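Of the 82 called copies, 56 kept their call in each of the 18 alternative fits that tested them, and 26 lost it in at least 1. Copies that a fit left untested, as with the filter at 5 FPKM, were not counted as lost there. Kept wherever tested were 22 of 23 called U1 copies, 6 of 10 U2 copies and 24 of 43 U6 copies. Over pseudocounts, filters, scalings and variance models, 67 to 86 copies were lower and 9 to 12 higher, except for 28 lower and 7 higher when the filter was raised to 5 FPKM, which leaves 51 copies tested, and 78 lower and 16 higher with no filter, which tests all 328. With each library left out in turn, 57 to 72 were lower and 9 to 12 higher, and of pathway genes 28 to 31 were lower and 39 to 43 higher. With a replicate block 66 were lower and 11 higher. Deviations from the stage means correlated at -0.055, -0.060 and 0.013 between same-numbered libraries. These values gave no sign of pairing but cannot settle whether the numbers pair samples. The log2 difference of sums ranged from -0.72 to -0.62 for U1, 0.09 to 0.22 for U2, -0.69 to -0.07 for U4, -0.43 to -0.23 for U5 and -0.59 to -0.46 for U6 with libraries left out. For U6 it was -0.24 without copies inside genes on their strand and -1.06 without the 2 copies that were higher. By identifier, 9 members had a peak in MII and 3 in GV. Among the tested copies covered by the naming rule, the sign turned for 4, none of them called, and other copies were not examined for this. With each replicate left out, ENSBTAG00000050664 ranged from -0.33 to 0.13 (without MII replicate 2), ENSBTAG00000042723 from -0.41 to 0.053 (without MII replicate 2; 0.020 without GV replicate 3), ENSBTAG00000053301 from -0.16 to 0.021 (without MII replicate 2) and ENSBTAG00000036659 from -0.57 (without MII replicate 2; -0.039 without GV replicate 2) to 0.63. With quantile normalization ENSBTAG00000036659 had -0.025. The cause was not tested. Scalings moved the median change of all genes by less than 0.1. Precision is limited by 3 libraries a stage and by any reads shared among copies.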
